A study of Mus musculus with 8 samples.

Results

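Recurring HTT peaks deep in introns were 2552 merged peak regions of mouse cortex with midpoints inside protein-coding genes, outside exons and away from start sites. HTT ChIP-seq, which recovers DNA with an antibody against huntingtin, gave 1 peak list for each of 4 libraries. Peaks on chromosomes 1 to 19 that overlapped by 1 base or more were merged, and a region was kept when it held peaks of at least 2 libraries and its midpoint lay in a protein-coding gene, in no annotated exon and more than 5 kb from any annotated start site. These regions were 2552 of 13861 recurring regions and of 153005 merged regions in all. They were selected on the peak calls themselves, so their number of libraries and their enrichment are given as a description with no test. Of the 2552 regions, 2310 had peaks in 2 libraries, 223 in 3 and 19 in all 4.

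The libraries came from male mice, each pooled from cortical tissue, and each group held 1 library. The age given for every group is 4 months, which in the methods is the age at injection. The age at tissue collection is therefore uncertain. The groups were Htt+/+ untreated, Htt+/+ with the ASO, HttQ111/+ untreated and HttQ111/+ with the ASO. HttQ111/+ mice carry, in 1 of the alleles of Htt, a knocked-in human exon 1 with an expanded CAG stretch. The ASO is an antisense oligonucleotide against both forms of Htt, given once into the cerebral ventricle at 500 µg, with tissue taken after 4 weeks from the injected side. Untreated mice received no injection, so the oligonucleotide and the injection cannot be told apart. The labels give 3 mice per pool and the methods 2 cortices for the ASO experiment, so the pool size is uncertain. The antibody, EPR5526, binds near the N-terminus of huntingtin and reads both forms, and whether huntingtin was lowered cannot be read from peak files. The libraries held 40505 to 47957 peaks at a recovered depth of 1.10 to 1.36 ChIP reads per kb. HttQ111/+ ASO stood apart, with a peak at 644 of 3216 recurring start-site regions against 2074 to 2551 in the other libraries, and left the most deep intron regions, 1563, when taken out. The other libraries left 1261 to 1424 when taken out, fewest for HttQ111/+ untreated. No library had a replicate, and all intervals below are 95% intervals that cover counting error only.

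Introns are transcribed with their gene and spliced out of the RNA. Intron sequence far from the start site can hold enhancers, which carry transcription factor sites and raise transcription at a distance, and it also holds most kinds of repeated sequence, among them tandem repeats, in which a short unit follows itself head to tail. Huntingtin is a large, mostly cytoplasmic scaffold protein that also enters the nucleus and binds transcription regulators. It is not known as a sequence-specific DNA-binding factor.

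Regions called in all 4 libraries are where peaks recurred most, so the 200 bases around the summit are shown for the first 5 of them, ordered by their lowest fold enrichment over the 4 libraries. Sequences are from the plus strand of NCBIM37 (mm9). For Tbc1d16, Csmd2 and Itgad, capitals and lower case mark alternate blocks of 1 repeat unit, which has 29, 9 and 56 bases. For Wdr78 and Accn1, capitals mark CG dinucleotides.
Tbc1d16, chr11:119036010-119036209: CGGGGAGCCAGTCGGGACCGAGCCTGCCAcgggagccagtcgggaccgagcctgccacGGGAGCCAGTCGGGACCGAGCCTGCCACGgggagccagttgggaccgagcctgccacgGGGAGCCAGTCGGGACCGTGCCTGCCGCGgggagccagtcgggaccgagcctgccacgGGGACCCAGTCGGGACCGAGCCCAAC
Csmd2, chr4:127899121-127899320: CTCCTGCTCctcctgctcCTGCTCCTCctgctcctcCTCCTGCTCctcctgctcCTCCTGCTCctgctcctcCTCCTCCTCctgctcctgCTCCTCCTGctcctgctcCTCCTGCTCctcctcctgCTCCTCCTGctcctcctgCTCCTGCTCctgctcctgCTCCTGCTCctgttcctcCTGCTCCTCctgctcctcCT
Itgad, chr7:135331178-135331377: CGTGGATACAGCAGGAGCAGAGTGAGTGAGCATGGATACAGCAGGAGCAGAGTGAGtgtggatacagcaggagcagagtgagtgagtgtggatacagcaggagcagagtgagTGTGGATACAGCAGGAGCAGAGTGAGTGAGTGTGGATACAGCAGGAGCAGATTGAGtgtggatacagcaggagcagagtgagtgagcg
Wdr78, chr4:102768662-102768861: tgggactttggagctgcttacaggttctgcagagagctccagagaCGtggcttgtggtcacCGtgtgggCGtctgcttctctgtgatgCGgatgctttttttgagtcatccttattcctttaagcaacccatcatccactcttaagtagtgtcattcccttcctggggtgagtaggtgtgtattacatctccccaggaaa
Accn1, chr11:80851488-80851687: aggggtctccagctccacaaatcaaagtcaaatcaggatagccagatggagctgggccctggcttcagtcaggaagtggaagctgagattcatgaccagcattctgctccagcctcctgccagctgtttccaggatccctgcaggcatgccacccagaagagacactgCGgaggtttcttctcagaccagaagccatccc
The Alpk1 and Cntnap4 windows, from regions further down the same order, were added after their values were seen because they show short repeat units of 16 and 6 bases, again as alternate blocks. In Cntnap4 the marked blocks run on past the end of the repeat, over other sequence.
Alpk1, chr3:127401240-127401439: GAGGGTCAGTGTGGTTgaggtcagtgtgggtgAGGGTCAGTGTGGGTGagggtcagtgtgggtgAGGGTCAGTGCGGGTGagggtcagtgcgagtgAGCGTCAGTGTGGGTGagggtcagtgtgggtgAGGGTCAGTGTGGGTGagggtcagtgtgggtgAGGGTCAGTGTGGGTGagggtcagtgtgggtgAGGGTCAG
Cntnap4, chr8:115278244-115278443: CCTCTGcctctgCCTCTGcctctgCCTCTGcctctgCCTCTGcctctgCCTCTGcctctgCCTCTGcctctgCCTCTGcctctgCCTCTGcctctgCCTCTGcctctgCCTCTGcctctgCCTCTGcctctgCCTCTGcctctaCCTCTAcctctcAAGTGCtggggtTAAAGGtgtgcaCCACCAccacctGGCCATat
A window is called a tandem repeat here when at least 80% of its bases equal the base 1 unit further on, for the best unit of 1 to 60 bases. That share was 70.8% in Tbc1d16, just under the limit, 87.1% in Csmd2, 96.5% in Itgad, 90.8% in Alpk1 and 84.0% in Cntnap4. It was 34.3% in Wdr78 and 32.9% in Accn1, which are not repeats.

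Fold enrichment, as deposited, is the ratio of scaled read coverage to local background at the summit, with the same constant added to both. It is therefore lower than the plain ratio of the coverage to the background. Its values ranged from 3.47 to 10.8 over the first 15 of these regions. The Tbc1d16 region (chr11:119035865-119036302, intron 3 of 11) had the highest value of any of them. Tbc1d16 encodes a GTPase-activating protein for Rab proteins of the endosome. In Htt+/+ cortex its fold enrichment was 7.17 without and 10.8 with ASO, and in HttQ111/+ cortex 8.04 and 5.97. The ASO library was the higher one in Htt+/+ and the lower one in HttQ111/+. These values rest on 6, 9, 7 and 7 reads, so the order of the libraries is within counting error. The Csmd2 region (chr4:127898976-127899373, intron 4 of 67), in a gene for a complement-control-domain membrane protein of neurons, had 5.90, 5.56, 6.41 and 5.33 in the same order. Its values were close together and rested on 4, 4, 4 and 5 reads. The Itgad region (chr7:135331144-135331518, intron 11 of 30) had 7.87, 4.71, 4.38 and 4.47. These rested on 7, 6, 5 and 8 reads, so their order is within counting error too. Itgad encodes the integrin alpha D subunit of leukocytes. The Wdr78 region (chr4:102768263-102768858), in a gene for a dynein component of cilia, had 5.82, 4.96, 4.31 and 4.41, on 3, 3, 2 and 3 reads. The Accn1 region (chr11:80851226-80851929) had 4.06, 5.47, 6.19 and 7.02, and here HttQ111/+ ASO was the highest. With 2, 3, 3 and 5 reads, that order is also within counting error. Accn1 encodes an acid-sensing ion channel, and the region lay in its first intron of 996 kb.

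**Figure D1:**
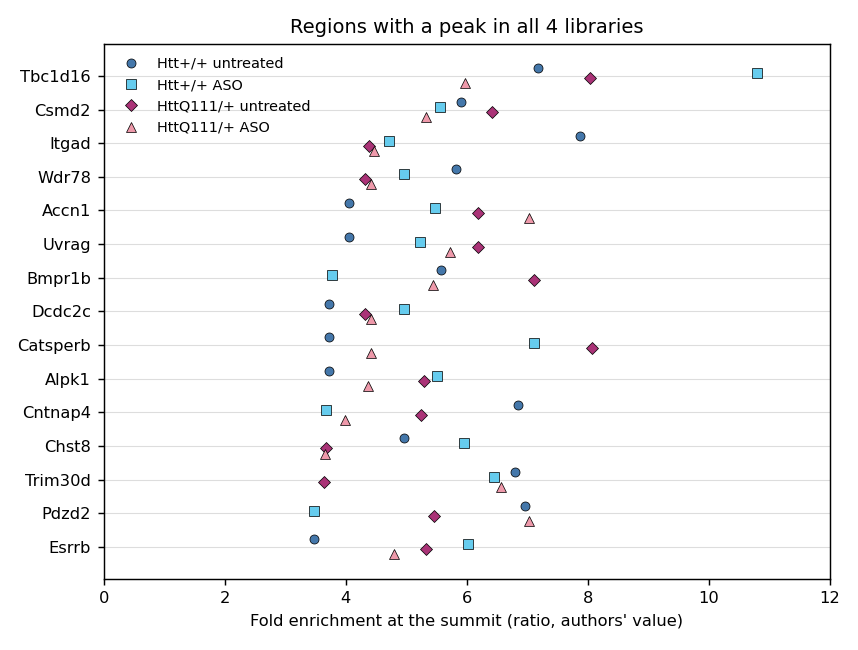
Fold enrichment at the summit (horizontal axis, ratio as deposited) of the first 15 regions with a peak in all 4 libraries, 1 row per host gene and 1 point per library. The libraries change places from gene to gene, and the 15 regions lie between 3.47 and 10.8.

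Among the 19 regions no library was always the highest. HttQ111/+ untreated was the highest in 8 regions, Htt+/+ ASO in 5, Htt+/+ untreated in 4 and HttQ111/+ ASO in 2. With ASO, 8 of 19 were lower in Htt+/+ and 13 of 19 in HttQ111/+, and 4 were lower in both. Of all recurring regions with both peaks of a pair, 54.6% were lower with ASO in Htt+/+ and 70.8% in HttQ111/+. The other host genes have varied roles. Uvrag, an autophagy gene, had 4.06, 5.23, 6.19 and 5.72. Bmpr1b, a BMP receptor gene, had 5.57, 3.77, 7.11 and 5.44 at a window whose 31-base words have a median of 937 copies in the genome. The genes Catsperb, for a subunit of the sperm calcium channel, Alpk1, for a kinase of innate immunity, Chst8, for a sulfotransferase, Esrrb, for an orphan nuclear receptor, and Dcdc2c, Trim30d and Pdzd2 held the rest of the 15 beside Cntnap4. Repeated sequence was common: 6 of the 19 windows had words with 10 or more copies, 6 had a repeat share of 60% or more, and 9 had at least one of these.

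The most reads among the 19 stood on a raised input. Cntnap4, for a neurexin-family adhesion protein of interneurons, had 23, 17, 14 and 19 reads in the order above, at a CCTCTG repeat whose words have a median of 26210 copies. Its fold enrichment was 6.84, 3.68, 5.25 and 3.98, on a local background 16.0-fold above the genome-wide one. The region shared by 2610528E23Rik and Filip1l had 73, 85, 85 and 59 reads and fold enrichments of 3.43, 3.79, 4.33 and 1.86, on a local background 83.9-fold above the genome-wide one. What raised the input was not tested. Elsewhere reads were few: the median was 3 per peak in each library, and 79.4% to 86.3% of the peaks had 2 to 4.

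Tandem repeats became more frequent with the number of libraries in which a region had a peak. They made up 0.883% (0.792 to 0.985) of the 36223 deep intron regions with a peak in 1 library, 3.33% (2.68 to 4.15) of those in 2, 8.52% (5.52 to 12.9) of those in 3 and 26.3% (11.8 to 48.8) of the 19 in 4. Of all 200-base tiles of deep intron sequence 0.363% met the same rule. The intervals of regions in 1, 2 and 3 libraries did not overlap. GC content was also higher in regions of more libraries, and tiles weighted to the GC of each group gave 1.04%, 2.49%, 5.01% and 7.51%, so at the same GC regions in 1 library had no excess and those in 2, 3 and 4 a smaller one than over all tiles. In all, 101 of 2552 regions (3.96%, 3.27 to 4.79) were tandem repeats, against 2.74% of tiles at the same GC. Most had long units: 14 had units of up to 6 bases, 20 of 7 to 20 bases, 48 of 21 to 40 and 19 of more.

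**Figure D2:**
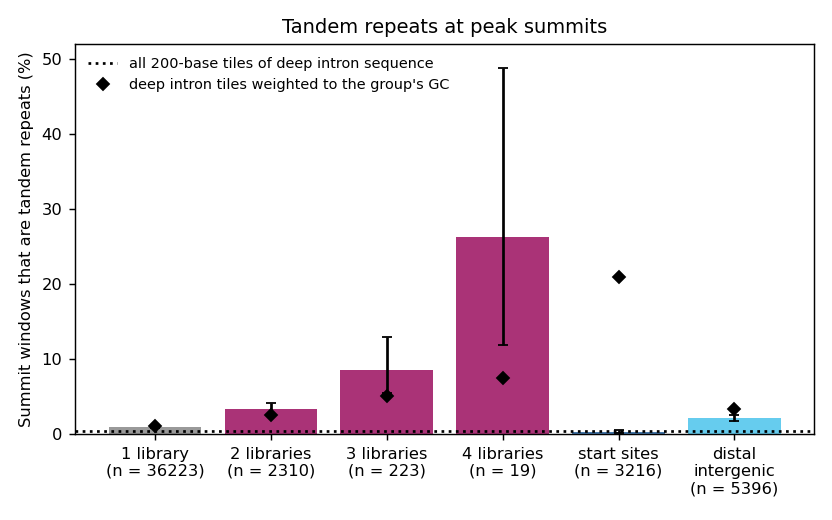
Share of summit windows that are tandem repeats (vertical axis, %) for deep intron regions by number of libraries and for recurring regions at start sites and in distal intergenic sequence. Bars are shares, error bars 95% Wilson intervals, the dotted line all deep intron tiles (0.363%), and diamonds the deep intron tiles weighted to each group's GC. The share goes from 0.883% to 26.3% in deep introns and is 0.249% at start sites.

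Recurring regions elsewhere had fewer of them, though the share of tandem repeats in all sequence of those classes was not computed. Only 8 of 3216 regions within 1 kb of a start site were tandem repeats (0.249%, 0.126 to 0.490), as was 1 of 476 in coding exons (0.210%, 0.0371 to 1.18), and distal intergenic regions had 2.08% (1.73 to 2.49), below the interval for deep introns. The 101 repeats were spread over 98 genes. In Dst, for a cytoskeletal linker of neurons and muscle, the region at chr1:34200980-34201441 had fold enrichments of 4.06, 4.36 and 6.29 and no peak in HttQ111/+ ASO. In Aass, for an enzyme of lysine breakdown, the region at chr6:23029316-23029990 had 10.9, 10.4 and 5.72 in the libraries other than Htt+/+ untreated. Both genes were chosen after their values were seen. Of the 101 repeats, 23.8% had peaks in 3 or 4 libraries, against 8.89% of the other 2451 regions. Of the repeats 78.2% had a peak in HttQ111/+ untreated and 29.7% in HttQ111/+ ASO, against 57.4% and 44.5% of the others. In Htt+/+ 63.4% had a peak without and 57.4% with ASO, against 56.2% and 51.4%. The repeats were also richer in GC than the others. Recurring coding exon regions had the same median GC as the repeats and almost no tandem repeats. Of these, 69.1% had a peak in HttQ111/+ untreated and 34.5% in HttQ111/+ ASO, so a skew of this direction was not particular to repeats. Local background was at least 2-fold above the genome-wide one at 44.6% of the repeats and 24.9% of the others, and 28.7% and 6.94% had words with 10 or more copies. The parts of GC and of multiply placed reads in the differences between repeats and others were not tested.

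Repeated words and a raised local background also became more frequent with the number of libraries. Windows whose 31-base words have a median of 10 or more copies in the genome were 5.25% of regions in 1 library, 7.14% in 2, 12.6% in 3 and 31.6% in 4, against 6.44% of tiles. Of all 2552 regions 199 were of this kind (7.80%), fewer than in distal intergenic sequence (15.5%) and more than at start sites (2.08%). Local background is the highest over a region's peaks, so regions of more libraries took it over more values. It was at least 2-fold above the genome-wide one at 15.8% of regions in 1 library and at 24.5%, 35.9% and 47.4% of those in 2, 3 and 4. Among the 216 regions with 5 or more reads in at least 2 libraries it was so at 90.3%, near the 84.3% of start-site regions. These 216 had a median GC of 61.5%, and 11.1% of them were tandem repeats, against 10.8% of tiles at the same GC. Regions seldom lay close together, with 24 of 2552 within 1 kb and 269 (10.5%) within 10 kb of another.

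The regions were richer in GC than the sequence they lay in. Their summit windows had a median GC of 54.5% (quartiles 51.0 and 58.0), against 42.5% in all tiles of deep intron sequence and 50.5% in regions with a peak in 1 library. Regions in 3 libraries had 57.0%, and start-site regions 72.0%. Per Mb of tiles, the number of regions went from 0.0593 at 35% to 40% GC through 2.69 at 45% to 50% and 35.4 at 55% to 60% to 156 at 65% and above. Regions with a peak in 1 library went from 8.82 to 406 per Mb over the same bins, a smaller range. The recurring share of all peak regions therefore went from 0.668% at 35% to 40% GC to 27.7% at 65% and above. No region lay in the 112 Mb of tiles under 35% GC.

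**Figure D3:**
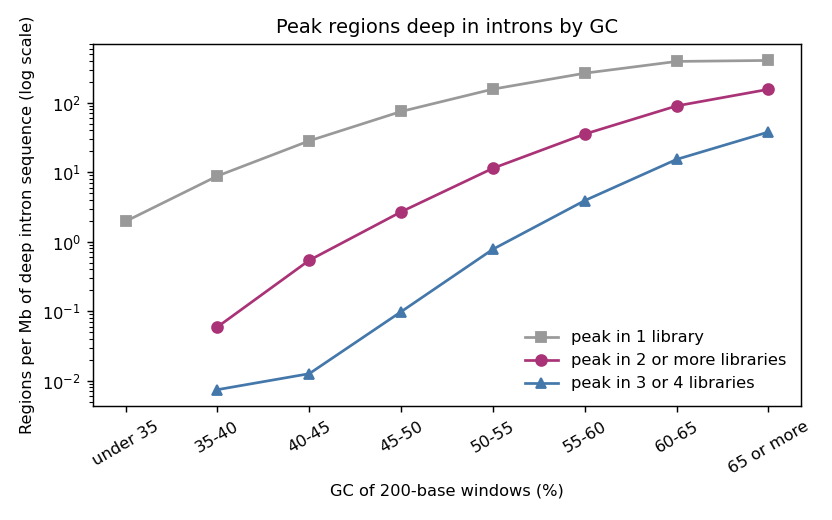
Peak regions per Mb of deep intron sequence (vertical axis, log scale) by GC of 200-base windows (horizontal axis, %), for regions with a peak in 1 library, in 2 or more and in 3 or 4. All 3 lines climb with GC, and the line for 2 or more libraries goes from 0.0593 to 156 per Mb. The bin under 35% GC has no recurring region and so no point on a log axis.

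Deep intron sequence held fewer recurring regions than its length. It made up 28.1% of non-gap autosomal bases but 18.4% (17.8 to 19.1) of recurring regions and 26.0% of the regions with a peak in 1 library. The density was 3.79 regions per Mb, 0.654 times that of all sequence. Start sites had 32.2 per Mb, coding exons more than 5 kb from a start 29.2 and distal intergenic sequence 4.31. A smaller part of deep intron regions recurred, with 6.58% of merged regions against 7.51% in distal intergenic sequence, 14.1% in coding exons and 23.5% at start sites. With tiles assigned to a class by their midpoint, and within bins of equal GC, deep introns stayed below distal intergenic sequence, with 10.8 against 15.2 per Mb at 50% to 55% GC, 32.2 against 51.9 at 55% to 60% and 146 against 203 at 65% and above. Start sites had 11.8, 24.7 and 358 in these bins. At 55% to 60% GC deep introns thus had more recurring regions per Mb than start sites, and at 65% and above they had fewer. Applying the rates of distal intergenic sequence to deep intron tiles bin by bin gave 3818 regions, against the 2552 counted. Start-site rates gave 2793 and coding exon rates 4454.

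Within genes the regions lay closer to exons and starts than the sequence did. The density was 5.14 per Mb at 5 to 10 kb from a start site, 3.73 at 20 to 50 kb and 1.99 beyond 200 kb. It was 4.92 per Mb within 1 kb of an exon and 2.88 beyond 20 kb. First and later introns had 3.80 and 3.90 per Mb. In 10 equal parts of the gene from start to end there were between 3.22 and 4.32 per Mb. These densities by position were not corrected for GC. The median distance was 20.2 kb to a start site and 4.54 kb to an exon, and 281 regions (11.0%) reached into an exon with some of their bases.

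Dividing by length reversed the order of gene sizes. Of 13108 genes with such sequence, 1849 (14.1%) held a region, from 5.73% of genes under 50 kb to 73.4% of those over 500 kb. Host genes had a median length of 103 kb and the other genes 28.8 kb. Per Mb, however, genes under 50 kb had 5.61 regions and genes over 500 kb 2.34. The 525 regions of genes under 50 kb were 1.48 times, and the 347 of genes over 500 kb 0.616 times, their share by length. With the GC of each gene's tiles also taken into account, the same ratios of all 5 length classes lay between 0.980 and 1.02. Over chromosomes the ratio ranged from 0.689 to 1.46 by length and from 0.818 to 1.18 by length and GC, where the GC rates were taken from the same regions.

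The genes with the most regions were long. Gm20388 held 35 and Fgfr2, the fibroblast growth factor receptor gene, 17, but these GENCODE vM1 models span 4435 and 3009 kb and contain 72 and 31 other genes. Cdh13, for a cadherin, Rbms3, for an RNA-binding protein, and Zfp536, for a zinc finger protein of neurons, held 7 each, at 7.17, 7.03 and 16.2 per Mb. Arfip1 also held 7, in a model that contains 5 other genes. Btbd11, Ulk4, Col23a1 and Mtus2 held 6 each, at 20.3 to 27.0 per Mb. The Zfp536 regions were ordinary ones, all with peaks in 2 libraries and with fold enrichments from 3.23 to 8.06. They lay in introns 1 to 4, at 49.0% to 60.5% GC.

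Per Mb, the order was led by shorter genes. Itgad had 4 regions in 29.5 kb, or 136 per Mb (37.0 to 347), where its length gave 0.112 and its length and GC 0.241. Of the 4 Itgad regions, 2 were tandem repeats, the one shown above and one at chr7:135342588-135343878 with a 6-base unit and fold enrichments of 6.47, 6.57 and 6.93 in the libraries other than HttQ111/+ ASO. Adcy7, an adenylyl cyclase gene, followed with 3 regions at 117 per Mb, then Capn9, for a calpain protease, with 115 and Acsf3, for an acyl-CoA synthetase of mitochondria, with 83.8. Dpysl2, which encodes the axon growth protein CRMP2, had 4 regions at 70.5 per Mb (19.2 to 180). The other 5 of the first 10 genes were Rxfp2, Nphp4, Nlrp9b, Rab27a and Kif27, at 65.8 to 73.4 per Mb. Every interval was wide, since each gene had 3 or 4 regions and the genes were ranked on this number.

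Genes of the synapse had fewer regions than their length. The list of synaptic and neuronal adhesion genes, such as neurexins, contactins and cadherins, held 46 regions in 23 of 59 genes, where length alone gave 123 and length with GC 59.6. Per Mb this was 1.42 (1.04 to 1.89), against 3.79 over all genes, in which 14.1% of genes held a region. Within it Cdh13 had 7, Cdh4 5, Csmd2 5 and Odz2 3. Glutamate and GABA receptor genes held 17 (40.3 by length, 27.3 by length and GC), with 3 each in Grik4, Grin2a and Grid1. Scaffold and vesicle release genes held 21 (54.6 and 35.5), with 5 in Shank2, which organises the postsynaptic density, and 3 in Erbb4, the neuregulin receptor gene. For the receptor genes and the scaffold genes 1.60 per Mb (0.930 to 2.56) and 1.46 (0.901 to 2.23) were both below the value over all genes. That value is not corrected for GC. The adhesion, receptor and scaffold lists had ratios of 0.374, 0.422 and 0.384 to length, but of 0.772, 0.622 and 0.591 to length and GC.

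**Figure D4:**
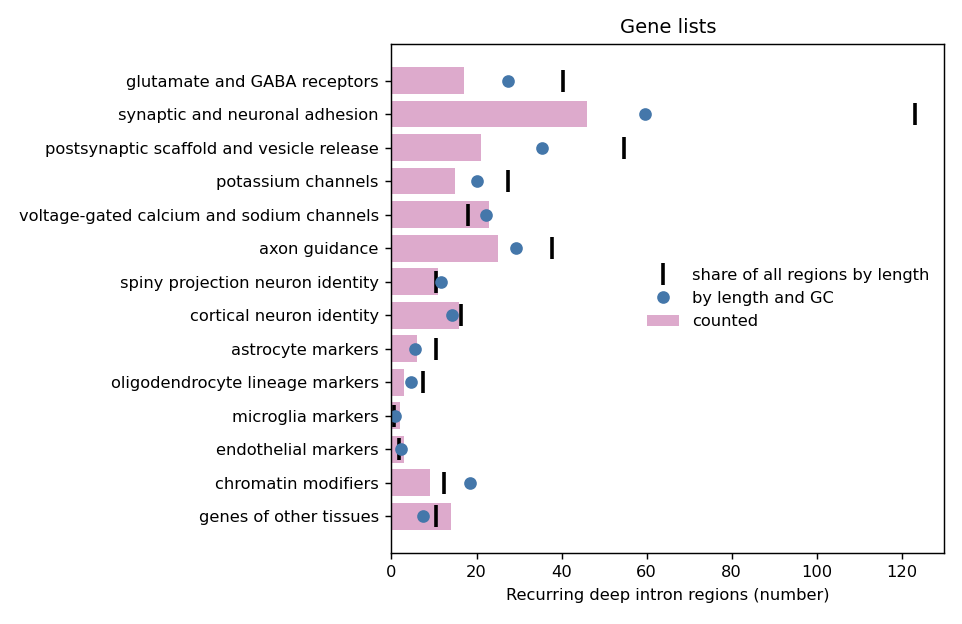
Number of recurring deep intron regions in each gene list (horizontal axis, bars), with the number that the list's share of deep intron sequence gives (black ticks) and the number that its sequence and GC give (blue points). Bars stop short of the ticks most in the synaptic adhesion list, with 46 counted against 123 by length and 59.6 by length and GC.

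The other lists lay on both sides of the number by length. Voltage-gated calcium and sodium channel genes held 23 (17.9 by length, 22.3 by length and GC), with 3 each in Scn8a and Cacna1c and 2 each in Cacna1g and Cacna1i. Potassium channel genes held 15 (27.3 and 20.1), at 2.08 per Mb (1.17 to 3.44), with 3 in Kcnip1 and 2 in Kcnh3, among others. Axon guidance genes held 25 (37.7 and 29.2), at 2.51 per Mb (1.63 to 3.71), with 3 each in Sema5b, Ephb2 and Slit3 and 2 in Ephb1. Both intervals lay below the value over all genes, which is not corrected for GC. The ratios to length and GC were nearer to even, at 0.748 for potassium channels and 0.855 for axon guidance. Chromatin modifier genes held 9 (12.4 and 18.4), with 2 each in Smarca4 and Smarca2, and their ratio of 0.489 to length and GC was the lowest of the lists. Cortical neuron genes held 16 (16.3 and 14.3), with 4 in Tshz2, 3 in Cux2 and 2 in Sox6, among others. Spiny projection neuron genes held 11 (10.4 and 11.7), of which 4 were in Ryr1 and 2 in Rarb. Genes of other tissues held 14 (10.4 and 7.38), again with the 4 of Ryr1, the muscle calcium release channel gene, and with 4 in Lipc, the hepatic lipase gene, and 2 in Acan. Astrocyte markers held 6 (10.4 and 5.51), with 2 each in Slc4a4, Npas3 and Gpc5, oligodendrocyte lineage markers 3 (7.45 and 4.58), with 2 in Pcdh15, endothelial markers 3 (1.74 and 2.26), with 2 in Flt1, and microglia markers 2 (0.666 and 0.752). The interval of the last 4 lists reached from 0.315 to 41.1 per Mb in all, too wide to order them.

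For Htt itself and single striatal genes the counts were near those that length gives. Pde10a, for a phosphodiesterase of striatal neurons, held 1 region (chr17:8875388-8875891, intron 1). It had a fold enrichment of 7.97 in Htt+/+ untreated and 4.23 in HttQ111/+ untreated cortex and no peak with ASO in either genotype. The values rested on 5 and 2 reads, and length gave Pde10a 1.39 regions. Htt, Rgs9, for a regulator of G protein signalling, and Foxp2, for a forkhead factor, held 0, where length gave 0.385, 0.186 and 1.80, and 5, 7 and 10 regions with a peak in 1 library lay there. Ppp1r1b and Sox11 have no sequence more than 5 kb from a start site in an intron.

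The libraries contributed more evenly to deep intron regions than to start sites. In Htt+/+ cortex 56.5% (54.6 to 58.4) of the regions had a peak without ASO and 51.6% (49.7 to 53.5) with it. In HttQ111/+ cortex the shares were 58.2% (56.3 to 60.1) and 43.9% (42.0 to 45.9). At start sites the same shares, in the order above, were 64.5%, 70.1% and 79.3%, with 644 of 3216 in HttQ111/+ ASO. HttQ111/+ ASO was thus the lowest library in both classes, by a far wider margin at start sites. In distal intergenic sequence the shares were 56.4%, 55.0%, 58.1% and 43.7%. The pair most often found in regions of 2 libraries was Htt+/+ untreated with HttQ111/+ untreated, with 534 of 2310, and the least often found was Htt+/+ untreated with HttQ111/+ ASO, with 314. At start sites these 2 pairs held 29.8% and 4.35% of the regions in 2 libraries, against 23.1% and 13.6% in deep introns.

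**Figure D5:**
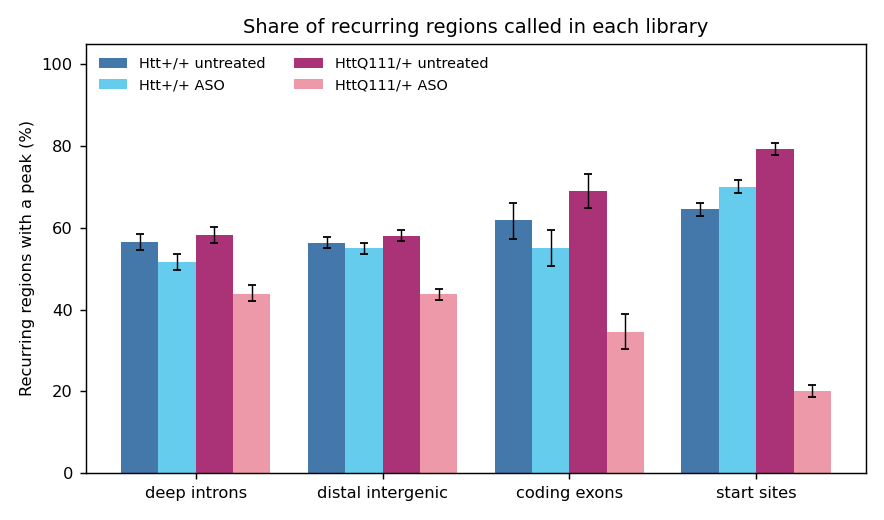
Share of recurring regions with a peak (vertical axis, %) in each of the 4 libraries, for deep introns, distal intergenic sequence, coding exons and start sites. Bars are shares and error bars 95% Wilson intervals. The 4 bars lie between 43.9% and 58.2% in deep introns and reach from HttQ111/+ ASO at 644 of 3216 to 79.3% at start sites.

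Peaks with the ASO were compared with those without it to ask whether lowering huntingtin lowered them. In Htt+/+, 2217 regions had a peak in at least one library of the pair, 900 without ASO alone, 775 with ASO alone and 542 in both. The fold enrichment was lower with ASO in 1218 (54.9%, 52.9 to 57.0), where a library without a peak was set to the lowest deposited value of 1.40. Over all recurring regions 52.2% were lower. In HttQ111/+, 1041 of 2162 regions had a peak without ASO alone, 677 with ASO alone and 444 in both. There 1361 (63.0%, 60.9 to 65.0) were lower with ASO, against 69.9% of all recurring regions and 88.2% of those at start sites. The share for deep introns was above the background in Htt+/+ and below it in HttQ111/+, and 1 library per group leaves no replicate spread to hold these differences against.

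The direction in HttQ111/+ depended on the measure. In the 444 regions with a peak in both libraries the median log2 ratio of fold enrichment was -0.31, and 72.1% were lower with ASO, near the -0.31 and 70.8% of all recurring regions with both peaks. By reads at the summit, 88 of these had fewer with ASO, 149 the same number and 207 more. After each library was divided by its median over the 256 regions of any class with peaks in all 4 libraries, 28.2% of the 444 were lower and the median log2 ratio was 0.20, again near the 30.5% and 0.21 of all recurring regions. A read counted for 3.30 units of coverage in HttQ111/+ untreated and for 2.67 in HttQ111/+ ASO. ChIP depth was 1.10 and 1.36 reads per kb, and the genome-wide background 0.763 and 1.04 units, in the same order. On that background the same number of reads therefore gave a lower fold enrichment in HttQ111/+ ASO. For 3 reads it was 6.19 in HttQ111/+ untreated (Accn1) and 4.41 in HttQ111/+ ASO (Cdk6). In the 542 regions with both peaks in Htt+/+, 58.7% were lower with ASO and 59.0% after the same division (54.6% and 55.1% of all recurring regions), while 149 had fewer reads and 201 more.

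Genotype was compared in the same way. In untreated cortex HttQ111/+ was lower than Htt+/+ in 45.0% of 2230 deep intron regions (43.0 to 47.1), against 42.4% of all recurring regions. With ASO it was lower in 59.1% of 2018 (56.9 to 61.2), against 66.7%. Both shares for deep introns were nearer to 50% than those over all recurring regions. The same number of reads did not give the same fold enrichment in each library. At the genome-wide background 3 reads gave 5.82 in Htt+/+ untreated (Cdk6) and 6.19 in HttQ111/+ untreated (Accn1). With ASO they gave 5.47 in Htt+/+ (Accn1) and 4.41 in HttQ111/+ (Cdk6). The direction turned with scaling. In the 697 deep intron regions with both peaks in untreated cortex, 37.2% were lower in HttQ111/+ before and 64.4% after division by the library median (37.5% and 57.5% of all recurring regions). With ASO the shares were 70.2% and 29.0% of 420 regions (70.1% and 32.2% of all recurring regions).

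Single regions that were lower with ASO in both genotypes rested on few reads. The Poc1b region (chr10:98612705-98613070), in a gene for a centriole protein, had 10.2 without and 3.31 with ASO in Htt+/+, and 7.11 without ASO and no peak with it in HttQ111/+. The Trappc9 region (chr15:72461104-72461477), in a gene for a vesicle transport protein of the brain, had 5.82 and no peak in Htt+/+, and 13.1 and 4.19 in HttQ111/+. Ptprk, Gmpr and Cdk6 completed the lowest 5, with mean log2 ratios of -1.76, -1.75 and -1.74, in which a missing peak stands at 1.40. The highest 5 were Clec16a, Acap2, Shc3, Enox1 and Usp13, with mean log2 ratios from 1.22 to 1.52, and none of them had a peak in HttQ111/+ untreated. The Clec16a region (chr16:10638850-10639360) had 3.47 and 7.82 in Htt+/+ and 5.09 with ASO in HttQ111/+, on 2, 5 and 4 reads.

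Motifs of transcription factors were mostly near the frequency that the GC of the regions gives. The E-box CANNTG was in 71.5% (69.7 to 73.2) of the 200-base windows, against 66.3% of all deep intron tiles and 68.1% of tiles at the same GC, and regions with a peak in 1 library had 71.5% as well. The SP/KLF motif GGGCGG was in 6.74% (5.83 to 7.78), against 1.75% of all tiles, 8.11% at the same GC and 45.9% of start-site regions. The CRE TGACGTCA was in 3 regions and its core TGACG, which the CRE contains, in 8.11% against 7.23% at the same GC. AP-1 TGANTCA was in 4.90% against 4.74%. The GC-rich EGR GCGGGGGCG, NRF1 GCGCATGCG and CTCF core AGGGGGCGC were in 2, 1 and 4 regions, or 0.0784%, 0.0392% and 0.157%, against 0.177%, 0.0784% and 0.137% at the same GC. Runs of G, with 4 runs of 3 or more G and 1 to 7 bases between them, were in 4.31% (3.59 to 5.17), below the 12.5% of tiles at the same GC. Repeats of CA or GA in 6 copies were in 1.33% and 0.274%, against 2.43% and 1.43% at the same GC. Both strands were read, and a window can hold more than one motif.

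CpG islands took a small part of the regions. A window of over 50% GC with more than 0.6 of the CG dinucleotides that its bases would give was found in 131 of 2552 regions (5.13%), in 0.360% of tiles and in 73.8% of start-site regions. The share was 4.50% of regions in 2 libraries, 10.3% in 3 and 21.1% (4 of 19) in 4. The rule itself asks for over 50% GC, which the regions reached more often than the tiles. No share of islands in tiles at the same GC was computed. Triplets CAG and CTG, counted together after the repeats above were seen, averaged 13.9 per window in the regions and 15.8 in those of 3 or 4 libraries, against 12.6 and 13.4 in tiles at the same GC.

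At the limits of the rule, the regions just inside 5 kb lay in Rhpn2, Usp28 and Gatsl2, at 5001, 5015 and 5041 bases from a start site, with fold enrichments from 3.67 to 7.97. Regions just outside it lay in Stx8 and Fgd5, at 4987 and 4975 bases, with 3.10 to 6.87. Regions with a peak in 1 library, just outside the limit of 2, had a median highest fold enrichment of 4.74, those in 2 libraries 5.58 over more peaks, those in 3 libraries 6.29 and those in 4 libraries 6.79.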

How the data were processed

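HTT ChIP-seq of mouse cortex gave 4 ChIP libraries with a peak list each; 4 input samples had no list of their own and were not analysed here. The members and gene lists were chosen with earlier results of these data known. Per the labels and methods, the authors aligned reads with HISAT2, drew every ChIP library down to the smallest one, pooled the inputs as 1 control and ran MACS2 on each ChIP library alone; bcl2fastq 2.17 is in the submitters' processing notes. The labels name mm9 and the methods mm10. No peak passed a chromosome end of NCBIM37 (mm9), and 23.2% of recurring regions lay within 1 kb of a GENCODE vM1 start site, which holds 4.17% of bases, so mm9 was used.

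The deposited files give the fold enrichment at the summit (a ratio), −log10 p and −log10 q values (the lowest −log10 p-value was 3.00) and a score, 10 times the −log10 p-value, truncated. No filter on artefact regions was applied here. Reads were recovered from fold enrichment and p-value with 1 factor per library, and whole reads matched 100% of peaks within 0.01. ChIP depth was 1.10 to 1.36 reads per kb and input depth 3.63. The recovered ChIP depths were thus not equal, although the methods describe drawing the libraries to the same size, and the reason was not tested. The search was tested on simulated data. Precision is given by the reads at the summit.

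GC, motifs, tandem repeats (at least 80% of bases equal to the base 1 unit on, unit up to 60 bases) and genome copies (median over 31-base words, 1 in 100 tiles) were computed on 200 bases around the highest peak's summit. Local background is the control level that the fold enrichment implies over its genome-wide value, taken as the highest over a region's peaks. Numbers by length are a gene's deep intron bases times 3.79 per Mb. Those by length and GC use the regions' own rates in GC bins of 2 points, scaled to the observed total. Genes named were the first 15 regions in all 4 libraries, the 10 genes with most regions and with most per Mb (of those with 3 or more), list genes with 2 or more (up to 4 each), the 5 lowest and 5 highest with ASO, genes the study names and regions at the 5 kb limit; a few genes that this rule names are not reported here. No test was run, since each group held 1 library. Intervals are Wilson (shares) and exact Poisson (per Mb). Scripts used scipy 1.17.1, pandas 2.3.3, numba 0.67.0, matplotlib 3.10.9 and numpy 2.4.6 under Python 3.11.15. Alternatives for peaks, overlap, libraries, distance, exons and scaling are in the closing section.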

Additional observations from a re-analysis of the deposited data

Results flagged for a closer look

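Chromosome X was outside the regions described above, which were taken from chromosomes 1 to 19. There, 201 of 2592 merged regions held peaks of 2 or more libraries. They were not placed in introns here.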

How the results depend on the processing

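No paired analysis was possible because each group held 1 library. The main values were 2552 regions, 18.4% of recurring regions, a relative density of 0.654, 1849 genes, a median GC of 54.5% and 54.9% and 63.0% lower with ASO in Htt+/+ and HttQ111/+. Deep introns stayed less dense than all sequence under every alternative run, and both ASO shares stayed above 50% under those in which they were computed (not when a library or the large gene models were left out), though not where regions with peaks in both libraries were also divided by the library median (28.2% in HttQ111/+).

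With peaks of q below 0.01 the share of recurring regions was 16.9%, the relative density 0.600, the median GC 55.0% and the HttQ111/+ ASO share 66.6%. With at least 5 reads per peak there were 216 regions in 207 genes, 5.68% of recurring regions, a relative density of 0.202, a median GC of 61.5% and ASO shares of 52.2% and 73.9%. With an overlap of 50% of both peaks there were 1578 regions, 17.1%, 0.607, 55.0% GC and 67.4% lower in HttQ111/+. With 3 libraries needed there were 242 regions in 232 genes, 10.7%, 0.380, 57.0% GC and 69.4% lower in HttQ111/+. Beyond 10 kb from a start the share was 13.9% and the density 0.602, and with no exon base 16.4% and 0.582. With peaks in both libraries of a pair 58.7% and 72.1% were lower with ASO, and after division by the library median 53.9% in HttQ111/+. The cause of these changes was not tested, beyond the smaller number of regions that stricter settings leave.

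Each library, left out, moved the number of regions by over 1.5 times, to 1261 without HttQ111/+ untreated, 1309 without Htt+/+ untreated, 1424 without Htt+/+ ASO and 1563 without HttQ111/+ ASO. Over these there were 1035 to 1225 genes, 16.1% to 18.3% of recurring regions, a density of 0.573 to 0.649 and a median GC of 54.0% to 55.5%, with 3.01% (without HttQ111/+ untreated) to 5.44% (without HttQ111/+ ASO) tandem repeats. Leaving out repeat windows, chosen after seeing the data, left 2281 regions and 1693 genes, and leaving out gene models that hold 5 or more others left 1842 genes. Most peaks rest on 2 to 4 reads, which limits every value of a single region.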
